A study of Mus musculus with 8 samples.

Results

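Each ribosome is built from ribosomal RNA and a set of about equally abundant proteins of the large (Rpl) and small (Rps) subunit, and the genes of these proteins are known to be expressed together, in step with cell growth. Many of their mRNAs start with a pyrimidine tract (the TOP motif) through which their translation responds to nutrient signalling. A few of the proteins have a second gene, a paralogue, whose product can take the place of the main protein, and nearly all have left processed pseudogenes, intronless copies of their mRNA, across the mouse genome. Quiescent satellite cells, from which adult muscle is repaired, are known for small size and low synthesis of ribosomes, which rises on activation.

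The cytosolic ribosomal protein genes were taken by symbol, as Rpl or Rps with a number and, where present, a further letter, plus Rplp0, Rplp1, Rplp2 and Rpsa, leaving out symbols marked as pseudogenes. These were 85 of the 24980 gene symbols counted, 52 of the large and 33 of the small subunit. They were followed in mouse myogenic progenitors of 2 origins. Teratoma-derived cells came from E14 embryonic stem cells carrying EGFP, which had formed teratomas in irradiated and injured muscle of NSG-mdx4Cv mice and were sorted as EGFP+, CD31-, CD45-, α7-integrin+ and VCAM-1+. Satellite cells came from adult muscle, and the strain and age of their donors are not given in the sources used here. Each origin was profiled as freshly isolated cells (TF, SF) and after expansion in culture to passage 8 (TE, SE), with 2 biological replicates per group. Strain, host and origin therefore cannot be told apart, and the comparisons of origin are between 1 embryonic stem cell line and satellite cells.

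Libraries held 11930961 to 21146632 estimated counts. Rn45s, the precursor of ribosomal RNA, took 7.99% to 21.3% of them in this total RNA protocol. Myogenic markers (6 genes) were present in every library, at a summed level of 1099 to 3098 CPM (counts per 1000000 counts of the scaled library), and no marker of any list was at 0 throughout. Fresh cells also held fibro-adipogenic markers (6 genes, 1025 to 1838 CPM summed, at most 7.73 in expanded cells) and endothelial markers (6 genes, 69.6 to 355 CPM in fresh cells, at most 2.22 in expanded cells). Summed cell cycle markers (6 genes) were at 26.4 and 35.5 CPM in SF and between 590 and 1418 CPM elsewhere. Markers of mature fibres (8 genes) were at 796 and 415 CPM in TF, 2179 and 2318 in TE, 302 and 239 in SF, and 3980 and 9902 in SE.

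A first set of sequences is shown because in teratoma-derived cells most counts of 2 members, Rpl34 and Rpl30, stood on the rows of near-identical pseudogene copies. Rpl34, a large subunit protein gene on chr3:130726831-130730398 (minus strand, GRCm38), and Rpl34-ps1, a processed pseudogene on chr6:71124610-71124963 (plus strand), differ in 2 of 354 coding bases, T132C and C318G, counted from the first base of the start codon with the base of Rpl34 first. The stretches around each difference, from coding base 112 to 152 and from 298 to 338, have the differing base in capitals.
Rpl34, 112 to 152: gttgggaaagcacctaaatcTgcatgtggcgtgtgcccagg
Rpl34-ps1, 112 to 152: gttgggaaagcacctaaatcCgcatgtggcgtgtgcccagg
Rpl34, 298 to 338: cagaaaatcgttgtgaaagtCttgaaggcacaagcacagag
Rpl34-ps1, 298 to 338: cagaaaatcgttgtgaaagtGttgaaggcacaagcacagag
Rpl30, also of the large subunit, on chr15:34440505-34443640 (minus strand), and the processed pseudogene Gm12191 on chr11:49678710-49679057 (minus strand) differ in 1 of 348 coding bases, G96A, shown from base 76 to 116.
Rpl30, 76 to 116: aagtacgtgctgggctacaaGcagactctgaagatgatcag
Gm12191, 76 to 116: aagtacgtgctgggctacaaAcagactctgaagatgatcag
Reads that do not cross these bases cannot be assigned by sequence within the coding region, and 80.1% of the 31-base words of the coding sequence of Rpl34 also stand in Rpl34-ps1, against 90.3% for Rpl30 and Gm12191.

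The module as a whole was first described by its share of counts. Ribosomal protein genes took 3.09% and 3.26% of all counts in TF, 3.62% and 3.75% in TE, 2.11% and 2.47% in SF, and 3.56% and 3.77% in SE. The group means were 3.18% ± 0.115 (SD, n = 2) for TF, 3.69% ± 0.0895 for TE, 2.29% ± 0.256 for SF and 3.67% ± 0.153 for SE. Both SF libraries lay below all others, both expanded groups lay above both fresh groups, and TE and SE overlapped. Counting error (95% Wilson interval, covering counting error only) was at most ± 0.00997 percentage points, far below the gap between replicates. Since Rn45s takes part of the same total and was lowest in TF, the share was also taken without it. The means were then 3.53% in TF, 4.52% in TE, 2.88% in SF and 4.45% in SE, with the same order. Both subunits showed this order of SF and SE, at 1.49% and 2.39% of counts for the large and at 0.796% and 1.27% for the small subunit. In such bulk RNA, fewer cells of a type and less RNA per cell cannot be told apart.

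**Figure D1:**
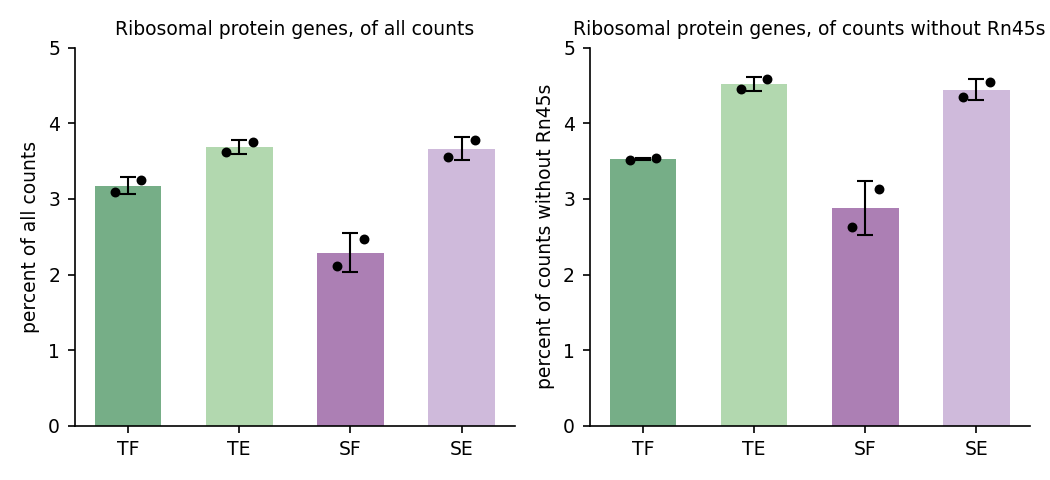
Share of counts on the 85 ribosomal protein genes in percent (y axis), by group (x axis), of all counts (left) and of counts without Rn45s (right). Points are libraries, bars group means and error bars SD (n = 2). The SF libraries, at 2.11% and 2.47% of all counts, sit below the other 6.

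Changes of most members were alike in size. Of the 85, 84 passed the filter on low counts and Rpl10l did not. From the lower to the upper quartile, the log2 fold changes spanned 0.28 in TE versus TF, 0.32 in SE versus SF, 0.30 in TF versus SF and 0.24 in TE versus SE, against 2.53, 3.18, 1.84 and 1.11 over all 17582 genes tested. Those genes were not matched to the members in level. Single members lay far outside, in SE versus SF from -7.56 (Rpl3l, at 0 counts in SE) to 2.42 (Rps27l). The median log2 change of the members was 0.16 in TE versus TF, where that of all genes was -0.18, and 0.52 in SE versus SF, where that of all genes was -0.23. Fresh cells differed by a median of 0.36 in TF versus SF (all genes 0.08), and expanded cells by 0.00 in TE versus SE (all genes -0.00). The scale matters for these values, because median-ratio scaling moved the median of all genes by -0.19 in SE versus SF and by -0.16 in TF versus SF. Relative to the median of all genes, the median member lay 0.75 higher in SE versus SF, 0.28 higher in TF versus SF and 0.33 higher in TE versus TF.

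**Figure D2:**
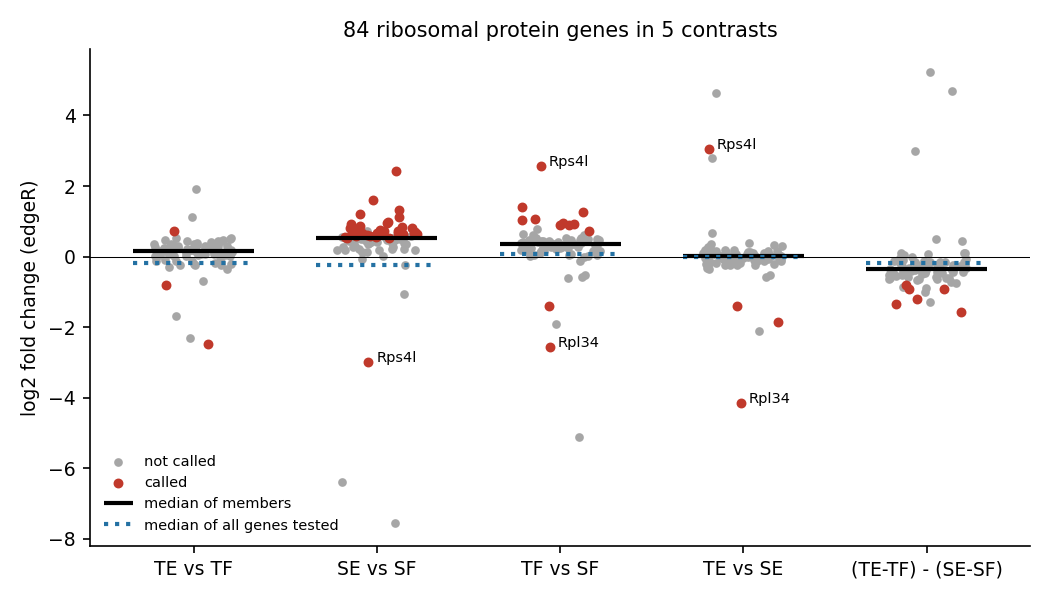
Log2 fold change of the 84 tested ribosomal protein genes (y axis) in 4 contrasts and in the difference between the culture effects of the 2 origins (x axis). Red points were called (adjusted p below 0.05 and fold more than 25% above 1), grey points were not, black lines are medians of members and dotted blue lines medians of all genes tested. In SE versus SF the members centre on 0.52 and in TE versus SE on 0.00, with Rpl34 far below.

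The culture of satellite cells gave most of the calls. Of 84 members, 35 were higher in SE than in SF (edgeR, quasi-likelihood F test with Benjamini-Hochberg adjustment, called at an adjusted p below 0.05 and a fold more than 25% above 1), where 20.9% of all genes were called higher, and 1 was lower, where 19.8% of all genes were. In 69 members both SE libraries lay above both SF libraries (33.9% of all genes). The SF replicates stood apart: over the 79 members with at least 100 counts in every library, the median level relative to the mean of all libraries was -0.56 in SF replicate 1 and -0.15 in SF replicate 2 on the log2 scale, against -0.00 and 0.01 in TF, 0.15 and 0.18 in TE, and 0.14 and 0.22 in SE. Without SF replicate 1 there were 16 members called higher, and without SF replicate 2 there were 61. The number was 23 without either TE library, 19 with median-ratio size factors, 20 with library sizes that left out Rn45s, and 16 when only SE and SF entered the fit. For the counts under alternatives, here and below, the share of all genes called in the same fit is not given. A change in the members and a change in the whole fit therefore cannot be told apart from them. Cell cycle and fibre markers were higher in SE and fibro-adipogenic and endothelial markers in SF, with the values given above. The SE replicates differed in summed cell cycle markers (1418 and 590 CPM) and fibre markers (3980 and 9902 CPM). Pericyte and smooth muscle markers (6 genes) were at 1656 and 1782 CPM in SF and at 273 and 284 in SE. Notch3 was the highest of the 6 in the mean over the libraries, and which cells it came from was not tested. The part of these markers in the result was not tested.

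The largest change among members called higher in SE versus SF was that of Rps27l, a paralogue of Rps27 in the small subunit that is known as a p53 target. It stood at 5.60 and 7.54 CPM in SF and at 41.0 and 29.3 in SE, a log2 change of 2.42 ± 0.39 (SE, adjusted p = 0.00103). Rpl41, the shortest ribosomal protein, followed with 159 and 239 CPM in SF and 628 and 572 in SE, a change of 1.59 ± 0.22 (adjusted p = 0.000431). Rps20, of the head of the small subunit, rose from 134 and 164 CPM to 374 and 377, by 1.33 ± 0.18 (adjusted p = 0.000351). The SF and SE libraries did not overlap in any of these 3 genes, which were chosen by their change in this same contrast.

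The stalk of the large subunit, which recruits the translational GTPases, is formed by Rplp0 with Rplp1 and Rplp2, and its 3 genes differed in size of change. Rplp1 was at 292 and 410 CPM in SF and at 799 and 734 in SE, a log2 change of 1.13 ± 0.21 (adjusted p = 0.00246). Rplp0 was at 622 and 844 CPM in SF and at 1241 and 1118 in SE, a change of 0.69 ± 0.21 (adjusted p = 0.0265). Rplp2 was at 465 and 658 CPM in SF and at 889 and 853 in SE, a change of 0.63 ± 0.21 (adjusted p = 0.0378). All 3 were called, and the difference between them was not tested. In TE versus TF the changes of the stalk genes were 0.13 (Rplp1), 0.17 (Rplp0) and 0.27 (Rplp2), with adjusted p of 0.685, 0.582 and 0.362, and none was called. Rplp1 was also higher in TF than in SF, at 701 and 773 CPM, by 1.07 ± 0.21 (adjusted p = 0.00663).

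Per kilobase of transcript, the scale on which levels of different genes can be compared, Rpl13a, Rplp2 and Rpl26 were the highest members in the mean over the 8 libraries, while in TF Rplp1 (1404 and 1550 CPM per kb) had a higher mean than Rpl26. Rpl13a, known also for a role in translational silencing outside the ribosome, had 1686 and 1640 CPM per kb in TF, 2246 and 2238 in TE, 1108 and 1544 in SF, and 2053 and 2187 in SE. Rpl26, which binds p53 mRNA in addition to its place in the large subunit, had 1387 and 1453 CPM per kb in TF, 1707 and 1806 in TE, 1047 and 1495 in SF, and 1521 and 1705 in SE. The SE and SF libraries of both genes did not overlap. Of these changes, that of Rpl13a was called in SE versus SF (0.68 ± 0.21, adjusted p = 0.0288) and that of Rpl26 was not (0.34 ± 0.22, adjusted p = 0.224).

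In teratoma-derived cells, culture moved few members past the threshold. Of 84, 1 was higher in TE than in TF (9.86% of all genes) and 2 were lower (16.2% of all genes). In 54 members both TE libraries lay above both TF libraries (31.8% of all genes). The gene called higher was Rpl27, of the large subunit, at 166 and 152 CPM in TF and 267 and 260 in TE, a log2 change of 0.73 ± 0.19 (edgeR, adjusted p = 0.0216). It was higher in SE than in SF too, at 99.9 and 137 CPM in SF and 232 and 227 in SE (0.96 ± 0.19, adjusted p = 0.00366). Those called lower were Rpl34 and Rps4l, described below. The number called higher varied with the libraries in the fit: it was 15 with 5 lower when only TE and TF entered the fit, 9 without SF replicate 1 or without SF replicate 2, 2 without either SE library, and 0 without TF replicate 1, TE replicate 1 or TE replicate 2. Members called lower numbered 0 without TF replicate 1, TE replicate 1 or TE replicate 2 and 1 without TF replicate 2. Epithelial and cartilage markers (6 genes) went from 891 and 491 CPM in TF to 12.3 and 12.7 in TE. Pericyte and smooth muscle markers went from 1254 and 1456 to 283 and 276, and markers of mature fibres from 796 and 415 to 2179 and 2318. The part of these markers in the result was not tested.

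Whether culture moved members differently in the 2 origins was tested by the interaction. No member was called higher (4.7% of all genes), and DESeq2 called none higher. Of the 84 members, 74 lay below 0 and 10 above, where 45.1% of all genes lay above 0. All 18 members with an unadjusted edgeR p under 0.05 were in the lower direction. The share of all genes at that unadjusted p is not given, so these 18 do not separate single members from the module. Members called lower, meaning a smaller rise or a larger fall in cells from teratomas than in satellite cells, numbered 6 (9.62% of all genes), and the median over members was -0.36 against -0.18 over all genes. Rpl41 was at 490 and 464 CPM in TF and 561 and 577 in TE, and its difference between the culture effects was -1.34 ± 0.31 on the log2 scale (adjusted p = 0.0191). Rpl37a, a zinc finger protein of the large subunit, was at 165 and 162 CPM in TF, 103 and 100 in TE, 81.5 and 133 in SF, and 151 and 153 in SE. The same difference was -1.19 ± 0.32 (adjusted p = 0.0371), while neither effect alone was called (TE versus TF -0.69, adjusted p = 0.0514; SE versus SF 0.50, adjusted p = 0.104). The other members called were Rpl34, Rpl15, Rps20 and Rps26, of which Rpl15 and Rps26 were named after their values were seen. Rps26, near the mRNA exit of the small subunit, was at 371 and 358 CPM in TF, 439 and 455 in TE, 174 and 212 in SF, and 452 and 438 in SE. Rpl15 was at 328 and 319 CPM in TF, 344 and 350 in TE, 172 and 178 in SF, and 317 and 343 in SE. In Rpl41, Rps20, Rps26 and Rpl15 alike, the SF libraries lay below the other 6. The 6 calls became 3 with median-ratio size factors, 2 with library sizes without Rn45s, 12 without SF replicate 2, 2 without SF replicate 1, 0 without TE replicate 2 and 1 without either TF library or TE replicate 1.

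**Figure D3:**
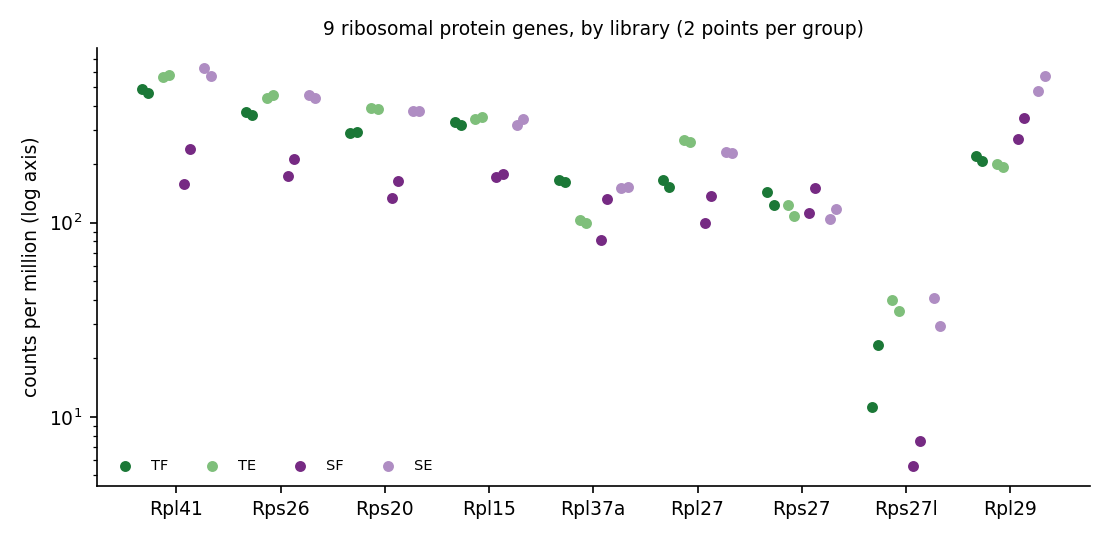
Level of 9 ribosomal protein genes in CPM (y axis, log scale) in the 8 libraries, coloured by group. The SF points lie lowest in Rpl41, Rps26, Rps20, Rpl15 and Rps27l, and the TF and TE points lie lowest in Rpl29, at 195 to 221 CPM.

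Origin was compared in fresh and in expanded cells, which use the same libraries as the culture contrasts. In fresh cells 10 of 84 members were higher in TF than in SF (15.1% of all genes) and 2 were lower (9.13% of all genes). With median-ratio size factors, or with library sizes without Rn45s, the split was 10 higher and 4 lower. The number higher was 32 without SF replicate 2, 6 without SF replicate 1 and 4 without TF replicate 2, and the number lower was 4 without SE replicate 2. The largest changes upward were those of Rps4l and Rps27l, taken up with the paralogues, and of Rpl41 (1.26 ± 0.22, adjusted p = 0.00355). Those called lower were Rpl34 and Rpl30. In expanded cells 1 member, Rps4l, was higher in TE than in SE (3.15% of all genes) and 3 were lower (4.07% of all genes), with both TE libraries above both SE libraries in 26 members (23.9% of all genes) and below in 27 (26.1% of all genes). With median-ratio size factors or library sizes without Rn45s, 0 were higher and 3 lower. On simulated counts of TE versus SE the fit recovered 20% of genes changed 2-fold and 98% of those changed 8-fold. Of its 148 calls, 18 fell on unchanged genes. The changed genes were drawn from a wide range of levels, while the median tested member was at 351 CPM in TE. These rates, with 2 libraries per group, therefore need not hold for members.

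Rpl34 was the member with the largest change in both contrasts of origin among those whose normalized count averaged 50 or more. Its row held 30.9 and 23.0 CPM in TF, 16.3 and 14.4 in TE, 135 and 185 in SF, and 272 and 276 in SE. All 4 libraries of teratoma-derived cells lay below all 4 of satellite cells, with a log2 change of -4.16 ± 0.25 in TE versus SE (adjusted p = 3.1e-05), -2.57 ± 0.23 in TF versus SF (adjusted p = 0.000166) and -0.81 ± 0.22 in TE versus TF (adjusted p = 0.0257). The row of Rpl34-ps1 was its mirror image, with 210 and 237 CPM in TF, 259 and 258 in TE, 1.59 and 0.808 in SF, and 0.111 and 0.0680 in SE. The pseudogene row thus took 87.2% and 91.1% of the counts of the pair in TF, 94.1% and 94.7% in TE, 1.16% and 0.435% in SF, and 0.0409% and 0.0246% in SE, with counting intervals of at most ± 1.22 percentage points. Together the 2 rows held 241 and 260 CPM in TF, 276 and 272 in TE, 137 and 186 in SF, and 272 and 276 in SE. When rows sharing words were summed before the fit, the change of Rpl34 was -0.00 in TE versus SE (adjusted p = 1.0), 0.13 in TE versus TF (adjusted p = 0.652), 0.63 in TF versus SF (adjusted p = 0.0390) and 0.76 in SE versus SF (adjusted p = 0.0109). The difference between the culture effects of Rpl34 went from -1.58 (adjusted p = 0.0094) to -0.64 (adjusted p = 0.155).

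Rpl30, which also regulates its own splicing in yeast, gave the same picture with the single base G96A. Its row held 41.9 and 45.1 CPM in TF, 43.1 and 56.1 in TE, 107 and 122 in SF, and 178 and 178 in SE. It was lower in TF than in SF (log2 change -1.40 ± 0.19, adjusted p = 0.0012) and in TE than in SE (-1.85 ± 0.20, adjusted p = 0.000732). Gm12191 held 99.5 and 98.2 CPM in TF, 130 and 130 in TE, 2.89 and 0.495 in SF, and 1.06 and 1.67 in SE. Its share of the pair was 70.4% and 68.6% in TF, 75.1% and 69.8% in TE, and between 0.406% and 2.63% in satellite cells. Summed with Gm12191 before the fit, Rpl30 differed by -0.00 in TE versus SE (adjusted p = 1.0) and by 0.29 in TF versus SF (adjusted p = 0.232), and it rose in SE versus SF by 0.63 (adjusted p = 0.0137). Which bases the cells carry at these positions was not tested, since only counts were used here.

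**Figure D4:**
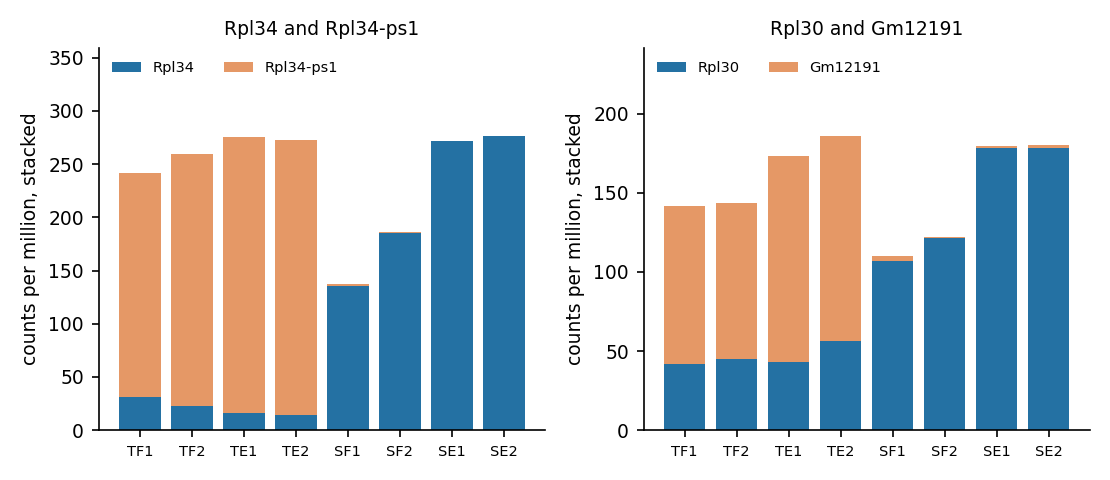
Level in CPM (y axis, stacked) of Rpl34 with Rpl34-ps1 (left) and Rpl30 with Gm12191 (right) in each of the 8 libraries (x axis). The pseudogene rows hold 68.6% to 94.7% of the pair in TF and TE and at most 2.63% in SF and SE, while the stacked heights of TE and SE are alike.

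Rpl29, a basic large subunit protein, was the third member lower in TE than in SE. It stood at 221 and 209 CPM in TF, 202 and 195 in TE, 271 and 344 in SF, and 474 and 570 in SE, with a log2 change of -1.40 ± 0.20 in TE versus SE (adjusted p = 0.0029). In TF versus SF the change was -0.52 (adjusted p = 0.0800), and it was not called. Rpl29 was the only one of the 3 without a copy in the count table that shared over 50% of its coding words, and of these words 94.9% stood in some other annotated gene and 48.6% in a gene that the table lists. The 3 listed rows with the most shared words, 4931440P22Rik, Gm8580 and Gm10548, together did not make up the gap, the highest of their levels in TE being 1.67 CPM. The chromosome 9 gene was among the 3 members, after Rpl34 and Rpl30, with the widest range of group means once the median of the module in each library was taken off, at 1.37 on the log2 scale against 4.14 and 1.86.

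Paralogue use was read as the paralogue's percentage of the counts of the pair. Rps27l made up 7.29% and 15.9% of the pair with Rps27 in TF, 24.6% and 24.5% in TE, 4.73% and 4.76% in SF, and 28.2% and 20.0% in SE. Both expanded groups lay above both fresh groups. The 2 TF libraries differed more than counting allows (at most ± 1.68 percentage points). They also differed in summed haematopoietic markers (6 genes, 347 CPM in replicate 1 and 29.9 in replicate 2) and endothelial markers (236 and 69.6 CPM), whose part in this was not tested. The level of Rps27l was 11.3 and 23.3 CPM in TF and 40.1 and 35.2 in TE, with a log2 change of 1.12 ± 0.37 in TE versus TF that missed the threshold (adjusted p = 0.0515), and TF lay above SF (1.40 ± 0.38, adjusted p = 0.0269). The main gene, a zinc finger protein of the small subunit, was at 143 and 123 CPM in TF, 123 and 109 in TE, 113 and 151 in SF, and 104 and 117 in SE. Rps27 was called in no contrast, and its changes with culture were -0.20 in TE versus TF (adjusted p = 0.498) and -0.25 in SE versus SF (adjusted p = 0.335), where the median member was at 0.16 and 0.52. The pair together held between 118 and 163 CPM in all libraries. Rps27rt, a near copy of Rps27 that holds 90.4% of its coding words, was listed at 0 in every library.

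Rps4l is annotated as a transcribed processed pseudogene on chromosome 6, a copy of the X-linked Rps4x. Its share of the pair was 8.64% and 5.70% in TF, 0.887% and 2.55% in TE, 1.59% and 1.35% in SF, and 0.0439% and 0.280% in SE. The levels were 42.6 and 26.6 CPM in TF, 3.13 and 9.24 in TE, 5.45 and 6.26 in SF, and 0.189 and 1.31 in SE. Rps4l was the one member called lower with culture in both origins, at -2.48 ± 0.73 on the log2 scale in TE versus TF (adjusted p = 0.0322) and -2.98 ± 0.80 in SE versus SF (adjusted p = 0.0149). It was higher in teratoma-derived cells both fresh (2.56 ± 0.73, adjusted p = 0.0315) and expanded (3.06 ± 0.80, adjusted p = 0.0499), the latter call holding in 5 of the 15 alternatives. The 633 genes of chromosome 6 whose normalized count averaged 50 or more had a median of 0.76 in TF versus SF and 0.53 in TE versus SE, against 0.21 and -0.01 elsewhere, and the part of this in the result was not tested. Rps4x itself was at 450 and 440 CPM in TF, 349 and 353 in TE, 337 and 456 in SF, and 430 and 469 in SE, and was called in no contrast.

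Rpl22l1, which can replace the RNA-binding protein Rpl22 in the ribosome, held 11.2% and 8.06% of the pair in TF, 9.89% and 8.62% in TE, 6.13% and 8.26% in SF, and 7.01% and 5.59% in SE, and TF overlapped SF. Rpl22 rose in SE versus SF from 179 and 236 CPM to 391 and 421 (0.97 ± 0.19, adjusted p = 0.00342), while Rpl22l1 went from 11.7 and 21.3 CPM to 29.5 and 24.9 (0.72 ± 0.32, adjusted p = 0.0984) and was called in no contrast. Gm15421, a transcribed processed pseudogene in the count table, holds 85.3% of the coding words of Rpl22l1 and is not in these shares. Summed with it before the edgeR fit, Rpl22l1 changed by 0.70 in SE versus SF (adjusted p = 0.0954) and was called in no contrast. Rpl7l1, an Rpl7-like protein of ribosome assembly, held 11.2% and 9.03% in TF, 11.6% and 13.2% in TE, 16.9% and 15.1% in SF, and 14.6% and 11.5% in SE, with neither gene of the pair called in any contrast. Rpl36al, an intronless copy of Rpl36a that lies outside the symbol rule, held 32.3% and 34.4% of its pair in TF, 39.0% and 36.8% in TE, 29.4% and 27.7% in SF, and 34.0% and 31.5% in SE, and each origin had the higher share in culture. Rpl36al rose in SE versus SF from 58.1 and 64.9 CPM to 120 and 109 (0.90 ± 0.17, adjusted p = 0.00257), and Rpl36a rose from 139 and 169 CPM to 233 and 237 (0.61 ± 0.18, adjusted p = 0.0221).

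**Figure D5:**
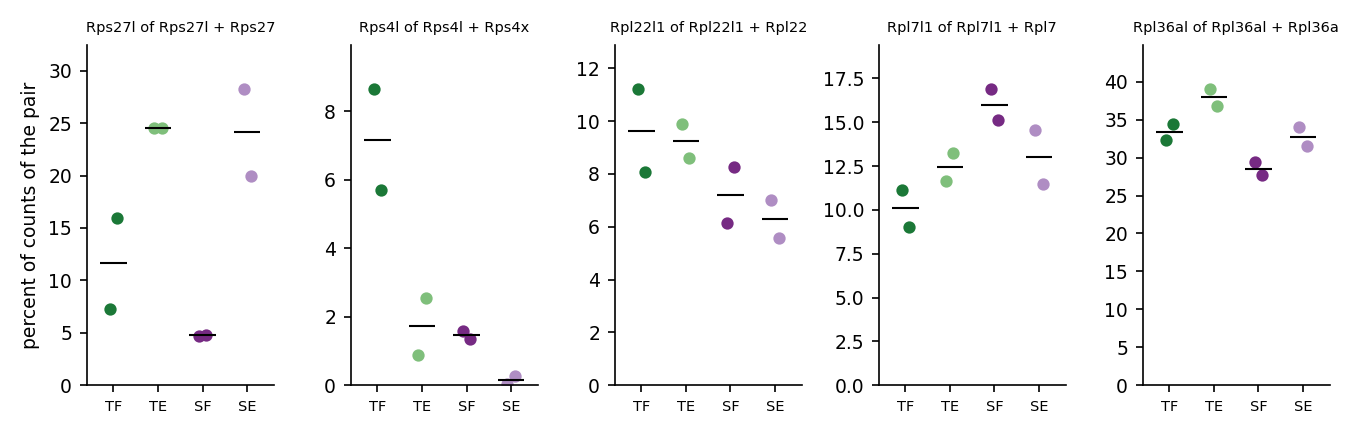
Percent of the counts of a pair that fell on the paralogue (y axis, each panel with its own scale from 0) in TF, TE, SF and SE (x axis), for 5 pairs. Points are libraries and lines group means (n = 2). Rps27l is between 20.0% and 28.2% in the expanded groups, and Rps4l is highest in TF.

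The tissue-restricted paralogues were barely detected. Rpl3l, the paralogue of Rpl3 that is known from heart and skeletal muscle, had 8 and 15 counts in TF, 0 and 7 in TE, 32 and 8 in SF, and 0 and 0 in SE, where Rpl3 held 511 to 1012 CPM. Rpl10l, known from the testis, had 11 counts in SF replicate 1, 2 in TF replicate 2 and 0 elsewhere. Rpl39l, known from male germ cells, had 43 counts in SF replicate 1 and 34 in SE replicate 1 but at most 4 in the other 6 libraries. Together with Rpl32l, annotated as a processed pseudogene, these were the 4 members with at most 3 counts in every library of some group. In Rpl3l, a count of 0, taken as a limit of 3 counts, allowed up to 0.0146% and 0.0170% of the pair in the SE libraries, for counting error only.

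A second set of sequences shows a start site of each of 4 members, as RefSeq places them in GRCm38.p6. They place the pairs and genes described above, with letters known from ribosomal protein promoters. Promoter windows of 250 bases before and 50 after the start were at hand for 64 of the 85 members. The letters CCGGAA or TTCCGG, the core of sites of ETS factors read on either strand, stood in 54.7% of these 64 genes and in 16.7% of all 27025 genes with a window. CTTTC, letters typical of a TOP tract, stood within 50 bases of the start on the strand of the gene in 32 of the 64 and in 14.6% of all. On the other strand the shares of CTTTC were 14.1% and 13.8%. In the stretches below, 60 bases before and 20 after the start, capitals mark these letters, and in Rps27 CTTTC and TTCCGG overlap.
Rps27, chr3:90213629-90213708, minus strand: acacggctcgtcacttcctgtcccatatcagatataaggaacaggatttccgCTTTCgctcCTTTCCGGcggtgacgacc
Rps27l, chr9:66946026-66946105, plus strand: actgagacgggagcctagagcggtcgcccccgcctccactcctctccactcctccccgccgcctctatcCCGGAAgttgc
Rpl15, chr14:18270967-18271046, minus strand: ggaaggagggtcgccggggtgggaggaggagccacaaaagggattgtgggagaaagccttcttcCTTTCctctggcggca
Rpl41, chr10:128549149-128549228, minus strand: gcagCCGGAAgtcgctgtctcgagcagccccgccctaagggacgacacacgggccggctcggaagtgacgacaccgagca
Rps27 and Rpl15 held CTTTC near the start and the windows of Rps27l and Rpl41 did not, and these matches are letters in a window, not measured sites. RefSeq places another start of Rps27l, with the stretch chr9:66946353-66946432. Its whole window held neither CCGGAA nor TTCCGG, and no CTTTC stood near that start.

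Other genes of ribosome production were set beside the module. Of 45 genes of RNA polymerase I and ribosome assembly, 27 were higher and 0 lower in TE versus TF (9.86% and 16.2% of all genes), with a median log2 change of 0.92. In SE versus SF 7 were higher and 8 lower (20.9% and 19.8% of all genes), with a median of -0.10. In TF versus SF 1 was higher and 20 were lower (15.1% and 9.13% of all genes), with a median of -0.69, where the members had 0.36. Rn45s took 12.1% and 7.99% of counts in TF, 18.8% and 18.2% in TE, 19.9% and 21.3% in SF, and 18.2% and 17.0% in SE. Nop14, of small subunit assembly, went from 63.7 and 53.8 CPM in TF to 201 and 215 in TE (1.82 ± 0.22, adjusted p = 0.000286). Nop58, a core protein of box C/D snoRNPs, went from 404 and 519 CPM in SF to 142 and 110 in SE (-1.88 ± 0.21, adjusted p = 0.000113), and Taf1b, a subunit of the polymerase I selectivity factor, from 5.23 and 2.42 to 9.99 and 15.7 (1.75 ± 0.47, adjusted p = 0.0144). In the interaction 15 assembly genes were called higher and 0 lower (4.7% and 9.62% of all genes).

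Of 31 translation factors, 4 were higher and 2 lower in TE versus TF (9.86% and 16.2% of all genes), and 13 higher and 3 lower in SE versus SF (20.9% and 19.8% of all genes). Eif3c, a subunit of initiation factor 3, rose in TE from 303 and 337 CPM to 968 and 1028 (1.64 ± 0.19, adjusted p = 0.00026). Eef1b2, an elongation factor subunit with a TOP mRNA, rose in SE from 194 and 265 CPM to 573 and 649 (1.41 ± 0.21, adjusted p = 0.000563), and Eef1a2, the muscle and neuron form of EF1A, fell from 20.5 and 9.58 to 0.951 and 1.05 (-3.92 ± 0.65, adjusted p = 0.00116). Eif3j1 was listed at 0 in both TE libraries and in 1 of the TF libraries, so its call in TE versus TF carries no fold. Of 13 regulators of TOP mRNAs and ribosome synthesis, 5 were higher and 1 lower in TE versus TF and 6 higher and 2 lower in SE versus SF, against the same shares of all genes. Eif4ebp1, the repressor of cap-dependent initiation that mTORC1 switches off, rose in both, from 37.4 and 33.4 CPM to 189 and 172 in teratoma-derived cells (2.35 ± 0.19, adjusted p = 3.14e-05) and from 21.5 and 21.9 to 78.5 and 92.0 in satellite cells (1.97 ± 0.19, adjusted p = 4.8e-05). Myc, a transcription factor that drives ribosome synthesis, fell in both, from 144 and 168 CPM to 60.5 and 55.0 (-1.44 ± 0.25, adjusted p = 0.00251) and from 798 and 1065 to 52.8 and 34.3 (-4.42 ± 0.28, adjusted p = 5.46e-06).

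Mitochondrial ribosomal protein genes, which serve the separate ribosomes of mitochondria, numbered 78. Of these, 26 were higher and 0 lower in TE versus TF (9.86% and 16.2% of all genes), with a median log2 change of 0.82. In SE versus SF 53 were higher and 1 lower (20.9% and 19.8% of all genes), with a median of 1.45. Mrpl57 led in teratoma-derived cells, from 9.50 and 4.55 CPM in TF to 29.4 and 25.6 in TE (1.97 ± 0.42, adjusted p = 0.00745). Mrpl34 led in satellite cells, from 0.291 and 0.942 CPM in SF to 10.5 and 5.83 in SE (3.70 ± 0.70, adjusted p = 0.00235), and Mrpl48 fell from 44.8 and 41.4 to 16.7 and 20.5 (-1.22 ± 0.29, adjusted p = 0.00832). Of the 5 further cytosolic ribosomal genes outside the symbol rule, 4 were tested, and Rpl36al was the 1 called with culture, in satellite cells.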

How the data were processed

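Stranded total RNA libraries (SMARTer Pico Input chemistry) of 8 samples were quantified by the authors. They deposited 1 table of estimated counts per gene symbol, not normalized. The submitters' processing notes name CASAVA, kallisto 0.44.0 and GRCm38 (mm10); the transcript set is not given in the sources used here. Counts were rounded, filtered with filterByExpr and scaled by TMM, and edgeR 4.0.16 (R 4.3.3) quasi-likelihood tests were fitted once over the 4 groups without a replicate term. Calls used a Benjamini-Hochberg adjusted p below 0.05 and a fold more than 25% above 1, the study's thresholds. CPM divides estimated counts by the TMM-scaled count on tested genes. Transcript lengths, positions and coding sequences came from GENCODE M21 (GRCm38), and 31-base words, the default index size of kallisto, were compared between genes. A gene's length was the median over its annotated protein-coding transcripts, or over all its transcripts where it had no protein-coding transcript. Promoter letters came from RefSeq. Members and lists were chosen with earlier results of these data known. Genes were named by a rule: all paralogue pairs, the 3 members with the largest change per contrast and direction where the normalized count averaged 50 or more, the 3 highest per length, stalk genes, members at the floor of 3 counts, and the leading gene of each list. The tests were tried on simulated data. Alternatives were median-ratio scaling, DESeq2 1.42.0, no filter, a replicate block, library sizes without Rn45s, single libraries left out, only 2 groups in the fit, and, chosen after seeing the data, pseudogene rows summed with members. The 2 replicates of a group differed by 11.7 to 87.2 times sampling noise (chi-square per degree of freedom), so none was a repeat deposit of the other. P-values cover the spread between these samples.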

Additional observations from a re-analysis of the deposited data

Results flagged for a closer look

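The interaction test called 6 of 84 ribosomal protein genes, all lower, where 9.62% of all genes were called lower (the change with culture in teratoma-derived cells less that in satellite cells; edgeR, adjusted p below 0.05 and fold more than 25% above 1; difference of the 2 log2 changes). The difference was -1.58 for Rpl34, -1.34 for Rpl41, -1.19 for Rpl37a, -0.92 for Rps20, -0.91 for Rps26 and -0.81 for Rpl15, with adjusted p between 0.0094 and 0.0475. In Rpl41, Rps20, Rps26 and Rpl15 all 3 other groups lay above SF, in Rpl37a TE lay below TF while SE lay above SF, and in Rpl34 the row sum with Rpl34-ps1 gave -0.64. With the pseudogene rows summed, 5 members were called in the interaction. The calls numbered 3 with median-ratio scaling and 2 with library sizes without Rn45s. That of Rpl15 held in 3 of 14 alternatives and those of Rps20 and Rps26 in 5 of 14.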

How the results depend on the processing

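Members called higher in TE versus TF (1) numbered 2 without the filter, 5 with DESeq2 and 15 with 2 groups in the fit, and those called lower (2) numbered 5 with 2 groups in the fit and 1 with pseudogene rows summed. Those higher in SE versus SF (35) numbered 19 with median-ratio scaling, 20 without Rn45s and 16 with 2 groups in the fit, and DESeq2 called 3 lower in place of 1. In TF versus SF, those lower (2) numbered 4 with median-ratio scaling, with DESeq2 and without Rn45s, and 0 with rows summed. In TE versus SE, those higher (1) numbered 0 with median-ratio scaling, without Rn45s and with 2 groups in the fit, and 2 with DESeq2, and those lower (3) numbered 1 with rows summed. In the interaction, those lower (6) numbered 3 with median-ratio scaling and 2 without Rn45s. With single libraries left out, the counts ranged from 0 to 9 higher and 0 to 3 lower in TE versus TF, 16 to 61 and 0 to 1 in SE versus SF, 4 to 32 and 2 to 4 in TF versus SF, 0 to 1 and 2 to 3 in TE versus SE, and 0 to 12 lower in the interaction. A group left with 1 library was assumed to vary like the others. The share of all genes called in each alternative is not set beside these counts, so they do not separate the members from the whole fit. The cause of the changes in these counts was not tested, save that 2 groups in the fit leave fewer samples.

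With the replicate number as a replicate block, 3 members were lower in the interaction and 30 higher in SE versus SF, and the other counts were as in the fit without it. Deviations of same-numbered libraries, taken over all tested genes, correlated between -0.0228 and 0.0261. With 2 libraries per group, a link between same-numbered libraries in part of the genes was not tested. Summing pseudogene rows turned the sign of Rpl34 in TE versus TF (0.13) and in TF versus SF (0.63) and of Rpl30 in TF versus SF (0.29). Of 909 repeats of the 61 single calls, 675 kept call and direction, 231 kept direction only and 3 reversed. The median log2 change of members ranged over the alternatives from 0.10 to 0.18 in TE versus TF, 0.33 to 0.75 in SE versus SF, 0.15 to 0.55 in TF versus SF and -0.02 to 0.02 in TE versus SE. In the interaction the median of members ranged from -0.54 to -0.15.

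The module share was 3.53% (TF), 4.52% (TE), 2.88% (SF) and 4.45% (SE) without Rn45s, the same without mitochondrial genes since the table lists 0 of them, and 7.83%, 9.63%, 6.36% and 8.87% of per-length values. Per transcript length, Rps27l held 20.6% of its pair in TE and 3.83% in SF, Rps4l 1.65% in SF, Rpl22l1 28.7%, 27.9%, 22.7% and 20.3% in TF, TE, SF and SE, Rpl7l1 7.90%, 9.79%, 12.7% and 10.3%, and Rpl36al 24.2%, 28.1%, 20.3% and 23.7%. With 2 libraries per group, 62% of simulated 3-fold changes in TE versus SE were recovered, so a member that was not called may still differ.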
